A study of Mus musculus with 4 samples.

Results

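Cd53, Lcp1 and Lyz2, 3 genes best known from blood leukocytes, were followed across 4 microarrays of cultured mouse aortic endothelial cells. They were taken from the authors' deposited table of 398 named probe sets by gene symbol, and each had 1 probe set out of the 35557 transcript clusters of the array. Lyz2 carries its older symbol Lyzs in that table and was matched through its RefSeq accession. The cells came from the C57BL/6J strain. Of the 4 arrays, 2 held RNA of hcatTg cells, which carry a transgene for human catalase, the enzyme that breaks down hydrogen peroxide, and 2 held RNA of wild type cells. Both genotypes had reached 80% confluence, were rested for 12 h in medium lacking serum, and then received 10% fetal bovine serum for 12 h. The promoter that drives the transgene, the number of animals or cell lines, and the passage of the cells are not stated in the labels. Each array came from its own RNA sample. Nothing says that these came from separate animals or cultures, so a p-value here reflects only the variation among these RNA samples, which may be technical.

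CD53 is a tetraspanin, a membrane protein with 4 membrane-spanning stretches that organises receptors on the surface of B cells, T cells and myeloid cells. LCP1, also called L-plastin, bundles actin filaments behind the leading edge of migrating leukocytes, and it is also switched on in many non-blood cells that grow as tumours or in culture. LYZ2 is lysozyme M, the bacterial cell wall hydrolase of macrophages and neutrophils, and its gene is the usual site for a Cre driver of myeloid cells in mice. Healthy aortic endothelium is not known as a main source of any of these proteins. In bulk RNA, fewer cells of a type and less RNA per cell cannot be told apart.

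The promoters of the 3 genes are shown because transcription of leukocyte genes is classically tied to ETS family factors such as PU.1, which bind purine-rich letters near the start of the gene. Each window runs from 250 bases before to 50 bases after the start annotated by RefSeq on GRCm38.p6, read 5′ to 3′ along the gene. Capitals mark GAGGAA (the PU box), AGGAAG (an ETS-type sequence) and GGGCGG (the GC box), searched on both strands. GAGGAA and AGGAAG can overlap, and they share 5 letters where they do so in the Cd53 window.
Cd53, chr3:106790100-106790399, minus strand: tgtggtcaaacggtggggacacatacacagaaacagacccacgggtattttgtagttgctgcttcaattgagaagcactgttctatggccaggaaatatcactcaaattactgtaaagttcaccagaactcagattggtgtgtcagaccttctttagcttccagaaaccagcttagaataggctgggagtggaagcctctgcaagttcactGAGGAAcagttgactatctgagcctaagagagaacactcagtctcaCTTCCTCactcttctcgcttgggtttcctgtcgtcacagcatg
Lcp1, chr14:75130873-75131172, plus strand: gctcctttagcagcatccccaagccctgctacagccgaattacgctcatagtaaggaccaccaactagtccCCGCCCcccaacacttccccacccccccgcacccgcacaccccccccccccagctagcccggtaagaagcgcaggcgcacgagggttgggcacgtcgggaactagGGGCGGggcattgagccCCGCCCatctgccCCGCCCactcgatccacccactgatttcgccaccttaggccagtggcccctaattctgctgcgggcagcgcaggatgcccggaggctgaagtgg
Lyz2, chr10:117282223-117282522, minus strand: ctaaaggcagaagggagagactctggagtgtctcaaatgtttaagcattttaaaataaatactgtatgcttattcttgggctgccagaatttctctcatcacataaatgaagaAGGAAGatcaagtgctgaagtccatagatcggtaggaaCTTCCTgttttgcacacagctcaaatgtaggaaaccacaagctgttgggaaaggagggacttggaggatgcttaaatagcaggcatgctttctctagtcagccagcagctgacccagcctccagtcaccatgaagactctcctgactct
The Cd53 window held 2 PU boxes, 1 of them overlapping an ETS-type sequence. The Lyz2 window held 2 ETS-type sequences and no GAGGAA. The Lcp1 window held 4 GC boxes and neither of the purine-rich sequences. A second annotated start of Lcp1 had no match to any of the 3 motifs in its window. Among 32817 mouse promoter windows of the same length, 28.3% held a PU box, 35.4% an ETS-type sequence and 35.6% a GC box. The printed Lcp1 window was rich in G and C (66.3%, with 19 CpG dinucleotides). The Cd53 and Lyz2 windows had 46.3% and 44.3% with 4 and 1 CpG, against a median of 52.7% and 7 CpG over all windows. At the second Lcp1 start the window had 44.3% and 4 CpG, so the contrast holds for the printed start alone. These are matches of letters, and binding was not measured here.

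Several facts of the arrays bear on all values that follow. The deposited values are on a log2 scale, and the array medians were 5.40 and 6.00 on hcatTg arrays 1 and 2, against 5.75 and 6.02 on wild type arrays 1 and 2, so hcatTg replicate 1 lay low as a whole. Wild type replicate 1 stood apart from the others in 115 clusters, where it was at least 4-fold below all 3 other arrays while those lay within 1 log2 unit of each other. The same count was 16 for hcatTg replicate 1 and 0 for each of the other 2 arrays. The column headings of the authors' deposited table pair replicate 1 of both genotypes as a first time and replicate 2 as a second time, so these are called the first and the second arrays. Sex-linked genes also separated the genotypes: Xist lay at 10.33 and 11.45 in hcatTg, against 4.71 and 4.66 in wild type cells, and the Y-linked Ddx3y at 3.85 and 4.79 in hcatTg, against 9.09 and 10.24 in wild type cells. Sex and transgene therefore cannot be told apart in any difference between the genotypes.

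The 3 leukocyte genes did not move together. Cd53 was higher in hcatTg cells on both pairs of arrays, and Lcp1 and Lyz2 were lower on both. All 3 were chosen from a table that the authors had selected on this same contrast, since every probe set in it has at least a 2-fold difference at both times by the authors' own folds. Their differences between genotypes are therefore given as values without a test. The member fold closest to that limit was the first-time signed fold of Lcp1 in the authors' deposited table, -2.72, where a negative sign stands for wild type over hcatTg. The probe sets just outside the limit have no gene name in the files. Over all clusters, 0.377% were at least 2-fold higher and 1.18% at least 2-fold lower in hcatTg on both pairs.

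Cd53 had deposited log2 signals of 8.25 and 9.27 on hcatTg arrays 1 and 2, against 6.20 and 6.40 on wild type arrays 1 and 2. Both hcatTg arrays lay above both wild type arrays, with 1.86 log2 units between the nearest values. The mean was 8.76 ± 0.719 in hcatTg and 6.30 ± 0.139 in wild type (SD, n = 2 each), a difference of 2.46 log2 units. The difference was 2.05 on the first arrays and 2.87 on the second arrays. The authors' deposited table gives Cd53 a 4.10-fold and a 7.32-fold rise at the first and second time, and it ranks 28 of 93 higher probe sets by mean fold.

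Placed among all clusters of its array, Cd53 took percentiles 84.6 and 85.1 in hcatTg cells and 57.7 and 55.0 in wild type cells. It thus lay among the brighter clusters in hcatTg cells and slightly above the middle in wild type cells. The hcatTg arrays differed by 1.02 in Cd53 and by 0.41 after each array was centred on its median, when Cd53 was at 2.86 and 3.27 in hcatTg and at 0.46 and 0.38 in wild type. The order of its levels was hcatTg array 2, hcatTg array 1, then the wild type arrays, whose values differed by 0.20.

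Lcp1 had log2 signals of 4.63 and 4.75 on the hcatTg arrays, against 6.07 and 7.99 on the wild type arrays. Both hcatTg values were low and close to each other, and the wild type values were higher and far apart. The mean was 4.69 ± 0.0887 in hcatTg and 7.03 ± 1.36 in wild type (SD, n = 2 each), a difference of -2.33 log2 units. The size of this difference hangs on the wild type arrays: it was -1.37 without wild type replicate 2 and -3.29 without wild type replicate 1. The groups did not overlap in either case, but leaving out an array cannot make separated groups overlap, so nothing is read from this.

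The wild type arrays differed more in Lcp1 than in most clusters. Lcp1 was 1.92 higher on wild type array 2 than on wild type array 1, where the median cluster was higher by 0.21, and 96.9% of all clusters had a smaller or equal step. Between the hcatTg arrays Lcp1 stepped by 0.13, where the median cluster stepped by 0.60. In percentiles of its array, Lcp1 stood at 34.5 and 27.4 in hcatTg and at 55.5 and 72.0 in wild type. The difference between genotypes was -1.44 on the first arrays and -3.23 on the second, for which the authors' deposited table gives signed folds of -2.72 and -9.39, rank 49 of 305 lower probe sets. A change of -1.79 between the pairs was among the lowest 0.894% of clusters, the median cluster changing by 0.37. With 1 array per genotype and time, this change has no replicate and was not tested. The hcatTg signals of Lcp1 lay near those of Xist in wild type cells (4.71 and 4.66) and are not shown to lie above background. Neither the hcatTg step nor the change between the pairs is therefore read as a transcript amount.

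Lyz2 had log2 signals of 3.63 and 4.55 on the hcatTg arrays, against 5.56 and 6.39 on the wild type arrays. The hcatTg arrays were the lower ones, and 1.00 log2 unit separated the nearest values. The mean was 4.09 ± 0.656 in hcatTg and 5.97 ± 0.591 in wild type (SD, n = 2 each), a difference of -1.88 log2 units. Its difference hardly varied between pairs, at -1.93 on the first arrays and -1.84 on the second. The authors' deposited table gives signed folds of -3.77 and -3.57, rank 107 of 305 lower probe sets.

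In percentiles, Lyz2 stood at 14.2 and 23.6 in hcatTg cells and at 46.1 and 54.9 in wild type cells. Even in wild type cells its signal was thus near the middle of the array. No detection call came with the values used here, so the low signals of Lyz2 and Lcp1 in hcatTg cells are not shown to lie above background, and their differences hold for the deposited values alone. The neighbouring gene Lyz1, the lysozyme P gene of the mouse, is a near copy. Over the 100 bases up to 50 bases past the annotated start, Lyz2 and Lyz1 shared 99 letters, 49 of them among the 50 transcribed ones, and over the whole 300-base window 67.0%. The probe sequences were not used here, so signal attributed to Lyz2 may include Lyz1 transcripts.

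**Figure D1:**
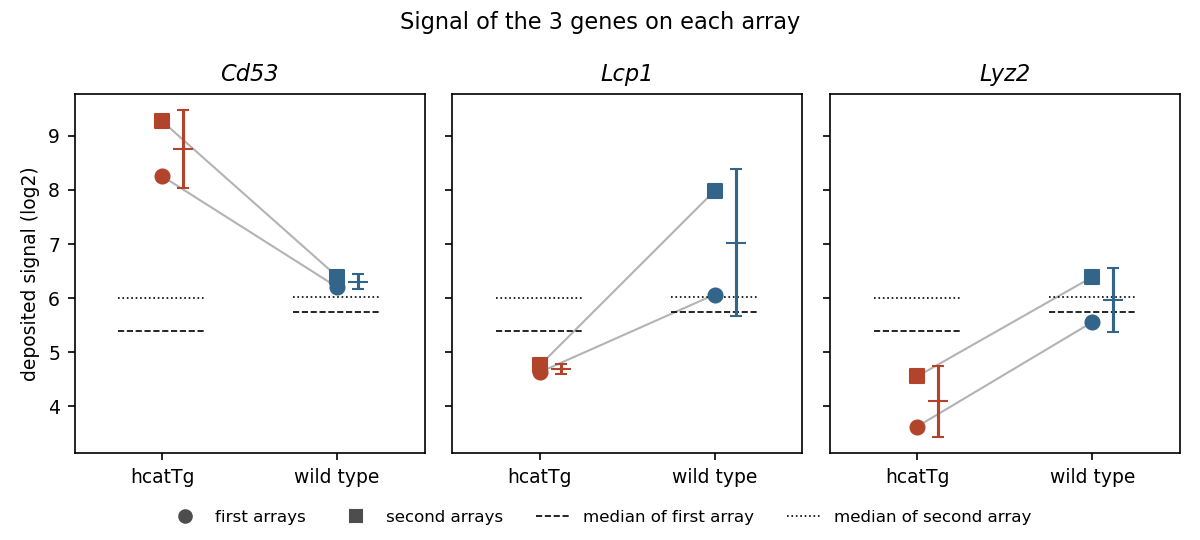
Deposited log2 signal of Cd53, Lcp1 and Lyz2 on the hcatTg arrays (left in each panel, red) and the wild type arrays (right, blue), with circles for the first and squares for the second arrays, grey lines joining arrays of the same time, bars giving mean and SD of 2 arrays, and black lines giving each array's median. Cd53 is higher on both hcatTg arrays (8.25 and 9.27, against 6.20 and 6.40), while Lcp1 and Lyz2 are lower on both.

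Because a constant shift of an array cancels in the ratio of 2 genes on it, ratios show how unequally the deposited signals changed. Since Lcp1 and Lyz2 are not shown to lie above background in hcatTg cells, the folds hold for the deposited signals and not for transcript amounts. The ratio of Cd53 to Lcp1 was 11.2-fold higher in hcatTg than in wild type on the first arrays and 68.7-fold higher on the second. The ratio of Cd53 to Lyz2 was higher by 15.8-fold and 26.2-fold. Lcp1 and Lyz2, which moved the same way, had a more even ratio, 1.41-fold higher in hcatTg on the first arrays and 2.63-fold lower on the second. The number of leukocytes in the cultures was not measured, and the part of such cells in any of the 3 differences was not tested.

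**Figure D2:**
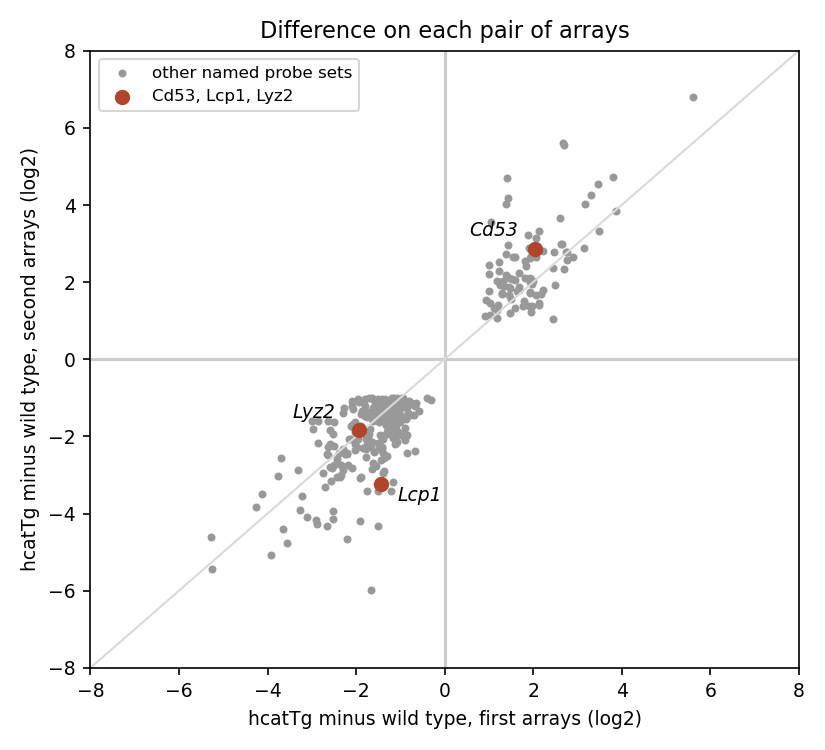
Difference of hcatTg minus wild type in deposited log2 signal on the first arrays (horizontal) and on the second arrays (vertical) for the 398 named probe sets, with the 3 leukocyte genes in red and a diagonal where both pairs are equal. Lyz2 lies near the diagonal (-1.93 and -1.84), Lcp1 lies below it (-1.44 and -3.23), and Cd53 is in the opposite quadrant (2.05 and 2.87).

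In all 3 genes the groups did not overlap. Among all clusters, 2.53% had both hcatTg arrays above both wild type arrays and 17.8% had both below, shares that became 11.5% and 10.8% after median centring, where the 3 genes still separated the genotypes. Of the 398 named probe sets, 331 were separated in this way, 84 higher and 247 lower. The 3 genes were chosen on this contrast, so nothing is read from their own count. With limma and Benjamini-Hochberg adjustment, 3 clusters passed an adjusted p of 0.05 between the genotypes (0.00844% of those tested). With the pairing of arrays in the model 1161 (3.27%) passed, in a fit that gave all clusters a single variance. When median centring was added to the pairing, 24 (0.0675%) passed.

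The step from the first to the second arrays did not choose the genes and could be tested, with genotype in the model. On the deposited values Lcp1 was higher on the second arrays by 1.02 ± 0.327 log2 units (SE, n = 2 arrays per time, limma adjusted p = 0.00975). Its step was 0.13 in hcatTg and 1.92 in wild type. Lyz2 was higher by 0.88 ± 0.327 (SE, limma adjusted p = 0.0294), in both genotypes. Cd53 differed by 0.61 ± 0.327 (SE, limma adjusted p = 0.166). These calls stand against 27.6% of all clusters called in the same fit, and that fit gave all clusters a single variance. After median centring, 16.8% of clusters were called, and the values were 0.58 for Lcp1 (limma adjusted p = 0.428), 0.44 for Lyz2 (0.109) and 0.17 for Cd53 (0.525). None of the 3 passed after median centring, and the Lcp1 step was then -0.48 in hcatTg and 1.64 in wild type. Cd53 passed when clusters below the median level were left out (limma adjusted p = 0.0312), in a fit that called 62.5% of its clusters. Lyz2 did not pass with an intensity trend (limma adjusted p = 0.0618), where 33.8% of clusters were called.

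Other leukocyte markers were sought in 9 lists of blood cell genes, 108 gene symbols in all, of which 5 were among the named probe sets. Of 16 pan-leukocyte genes, Lsp1 was named beside Cd53 and Lcp1. Of 27 macrophage and monocyte symbols, which hold Adgre1 under its older symbol Emr1 as well, only Lyz2 was named. Of 13 neutrophil genes only Mmp8 was named. None of the 52 genes on the lists for T and NK cells, B cells, dendritic cells, mast cells, platelets and erythroid cells was named. Defining markers such as Ptprc (the pan-leukocyte CD45 antigen), Csf1r and Adgre1 (macrophage receptors) were not among the named probe sets, and their levels were not analysed here. A gene is named only if the authors' own folds were at least 2-fold at both times, so its absence does not show that it was unchanged.

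Lsp1, which encodes an actin-binding protein of leukocytes that is also present in endothelium, had 7.22 and 7.99 on the hcatTg arrays, against 8.20 and 9.46 on the wild type arrays. Its difference was -1.22, and the hcatTg arrays were the lower ones by a margin of 0.21. Mmp8, the neutrophil collagenase gene, had 3.72 and 4.20 on the hcatTg arrays, against 4.66 and 6.19 on the wild type arrays. Its difference was -1.47, and it was highest on wild type array 2, as were Lcp1, Lyz2 and Lsp1. Of the 5 named blood cell markers, 4 were thus lower in hcatTg and Cd53 was the exception, in a table where 305 of 398 probe sets were lower. The mean signal of the 5 was 5.49 and 6.15 on the hcatTg arrays, against 6.14 and 7.29 on the wild type arrays. All 5 were named through the authors' selection on this same contrast, so nothing about leukocytes is read from their directions or mean.

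Among the families of the 3 genes, the tetraspanin list had 3 of its 26 genes named. That list is not the whole family: it leaves out Upk1b, a tetraspanin held in the mesothelial and epithelial list. Upk1b was higher in hcatTg, with 9.62 and 8.68 on the hcatTg arrays, against 6.88 and 5.89 on the wild type arrays. Tspan7 was higher in hcatTg as Cd53 was, with 5.70 and 7.40 on the hcatTg arrays, against 4.70 and 4.95 on the wild type arrays. Tspan12, a tetraspanin that takes part in Norrin signalling in retinal endothelium, was lower, with 4.76 and 6.14 on the hcatTg arrays, against 6.35 and 8.55 on the wild type arrays. Of the plastins only Lcp1 was named, and of the lysozymes only Lyz2.

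Markers of the other cell types of the vessel wall were set beside these values. The cultures are labelled endothelial, and 2 of 19 endothelial markers were named. Kdr, the main receptor for vascular endothelial growth factor, was at percentiles 67.5 and 74.9 in hcatTg, against 47.7 and 25.9 in wild type cells. Eng, a TGF-beta co-receptor, was at 85.9 and 79.7 in hcatTg, against 92.2 and 91.3 in wild type cells. Kdr thus differed in the direction of Cd53 and Eng in that of Lcp1 and Lyz2. All 5 of 12 smooth muscle and mural markers that were named were lower in hcatTg on both pairs, with a median difference of -2.14, though the arrays of the genotypes overlapped for Pdgfrb. Of these, Rgs5, a pericyte gene, resembled Lcp1 in its gap between wild type arrays, with 4.47 and 5.04 on the hcatTg arrays, against 5.97 and 9.37 on the wild type arrays. The named fibroblast markers (4 of 12) and the mesothelial and epithelial ones (4 of 10) were split evenly, 2 higher and 2 lower in each list. All these markers were named through the authors' selection on this same contrast, in a table where 305 of 398 probe sets were lower. The list members that were not named were not looked up, so nothing about these cell types is read from the counts or directions. The part of any of these cell types in the differences of Cd53, Lcp1 and Lyz2 was not tested.

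**Figure D3:**
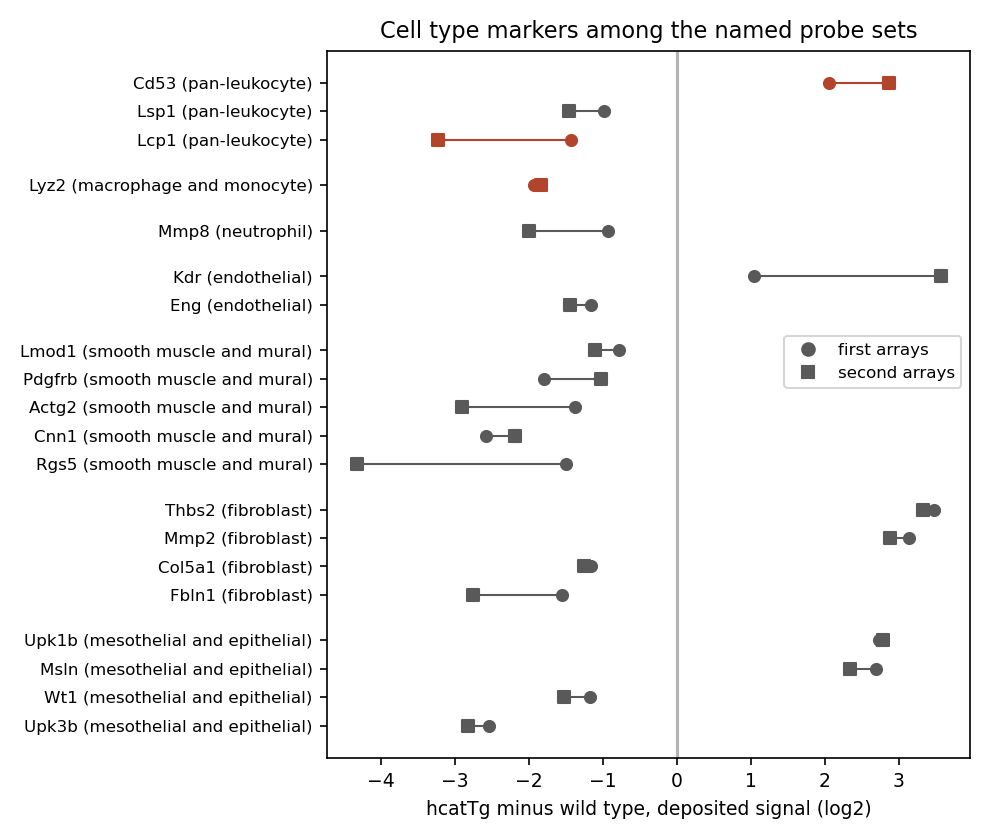
Difference of hcatTg minus wild type in deposited log2 signal for each cell type marker among the named probe sets (horizontal), on the first (circles) and second (squares) arrays, with Cd53, Lcp1 and Lyz2 in red. Of the 5 blood cell markers at the top, Cd53 alone lies to the right of 0, and the 5 smooth muscle and mural markers all lie to the left.

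The genes whose profile was most like that of each leukocyte gene were found by the root mean square difference over the 4 arrays between log2 signals centred on each gene's own mean, among the other 397 named probe sets. Cd53 was closest to Il1rl1, which encodes the IL-33 receptor ST2 (0.0990 log2 units), then Pir, which encodes the nuclear protein pirin, and Itga2, which encodes the integrin alpha 2 chain of a collagen receptor (0.104). Il1rl1 had 7.83 and 8.76 on the hcatTg arrays, against 5.92 and 5.87 on the wild type arrays. The median distance of the other probe sets from Cd53 was 1.95.

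Lcp1 was closest to Entpd1, which encodes the ectonucleotidase CD39 of endothelium and leukocytes (0.121), Trf, which encodes transferrin (0.148), and Sorl1, which encodes a sorting receptor (0.159). Entpd1 showed the same step between wild type arrays, with 4.60 and 4.47 on the hcatTg arrays, against 5.77 and 7.65 on the wild type arrays. Lyz2 was closest to Nsg1, a gene of neuronal endosomes (0.0545), Gucy1a2, a soluble guanylate cyclase subunit gene (0.118), and Gabra4, a GABA receptor subunit gene (0.125). The median distance of the other probe sets was 0.7557 from Lcp1 and 0.4775 from Lyz2. The profiles of Lcp1 and Lyz2 were 0.527 apart, so Lyz2 was only 62 in the order of likeness to Lcp1, and Lcp1 223 in that to Lyz2. Centring the arrays on their medians cancels in this measure and cannot change the order.

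By selection, each of the 3 genes had at least a 2-fold difference at both times by the authors' folds, in a table that holds both directions. A direction that is kept under the processing settings is therefore not read as support. The settings bear only on the size of the differences. Cd53 was higher by 1.95 to 2.97 log2 units with any 1 array left out. Lcp1 was lower, at -3.29 to -1.37, and Lyz2 was lower, at -2.35 to -1.42. Without wild type replicate 1, which stood apart, the values were 2.36 for Cd53, -3.29 for Lcp1 and -2.30 for Lyz2. Quantile normalization gave 2.59 for Cd53, -2.07 for Lcp1 and -1.63 for Lyz2.

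**Figure D4:**
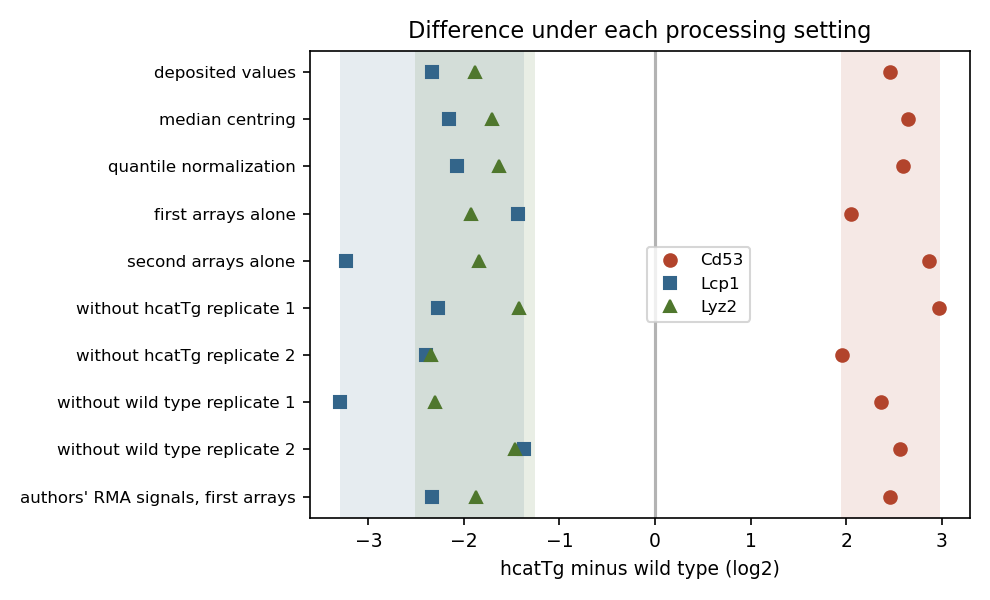
Difference of hcatTg minus wild type (log2, horizontal) for Cd53 (circles), Lcp1 (squares) and Lyz2 (triangles) under each processing setting (rows), with shaded bands of 1 pooled within-group SD around the difference on the deposited values. Cd53 stays to the right of 0 in every row and Lcp1 and Lyz2 to the left, and the Lcp1 points range from -3.29 without wild type replicate 1 to -1.37 without wild type replicate 2.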

How the data were processed

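Gene expression was measured on 4 Mouse Gene 1.0 ST arrays, 2 of hcatTg and 2 of wild type cells. The deposited value table holds log2 values, and the submitters' processing notes name Affymetrix Expression Console; its version, the build and any scaling between arrays are unstated there. The authors' gene table holds log2 RMA signals of the first arrays, a linear ratio and signed fold changes, per the file headers; its second-time folds equal the log2 differences of the value table to within 9e-05, while its first-time log2 ratios differ from them by up to 1.05. Of its 398 accessions, 385 matched RefSeq genes.

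Here limma 3.58.1 in R 4.3.3 (lmFit, eBayes, Benjamini-Hochberg adjustment) was run over all 35557 clusters, control rows included, and tested on simulated data. The smallest two-sided p that exact permutation of 4 arrays allows is 0.333. Arrays give no read depth, so precision is set by their number. The replicate numbers pair the arrays through the times named in the gene table. Genes, lists, tests and alternatives were chosen with earlier results of these data known. Named genes are the 3 genes, the 3 most like each by profile, list members among the named probe sets, and Xist and Ddx3y; the blood cell genes of the closing section were picked after their values were seen. Alternatives were median centring, quantile normalization, a level filter, intensity trend, a threshold of 0.1, the replicate block, omission of low-numbered clusters and of each array, and the authors' RMA signals.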

Additional observations from a re-analysis of the deposited data

How the results depend on the processing

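Cd53, Lcp1 and Lyz2 were selected with at least a 2-fold difference at both times by the authors' folds, which holds each difference away from 0. With 2 arrays a group, leaving out 1 cannot move a difference by more than 1 pooled SD. Neither a kept direction nor a small move therefore shows stability. In percentile points the differences were 28.5 for Cd53, -32.8 for Lcp1 and -31.6 for Lyz2. Lyz2 was not computed under the level filter, since its mean lies below the median cluster. The replicate block turns each difference into its values on the 2 pairs (2.05 and 2.87, -1.44 and -3.23, -1.93 and -1.84). The limma count of 3 clusters between genotypes was 0 with median centring or quantile normalization (975 and 1253 at an unadjusted p under 0.05), 42 with an intensity trend, 8 at a threshold of 0.1, 1161 with the replicate block, 24 with the block and median centring, 52 without the 6636 lowest-numbered clusters, and 1494 when block and centring were added to that. Leaving out 1 array gave 0 to 192: 0 with either hcatTg array left out (440 for the first and 1340 for the second array at an unadjusted p under 0.05), 103 without wild type replicate 1 and 192 without wild type replicate 2, with the spread of the lone array taken from the other genotype. The count between times, 9820, was 5990 with median centring and 0 with quantile normalization (12588 at an unadjusted p under 0.05), where the step of Cd53 turned to -0.0719. Among the fits between genotypes, the replicate block and those without a wild type array gave all clusters a single variance. Leaving out arrays or clusters also changed how variances were pooled over clusters, so those moves cannot be assigned to the omitted part alone. The causes were not tested, apart from the raised threshold, which was applied to the same fit.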

Other observations

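Outside the fixed lists, some further named probe sets belong to genes with a known role in blood cells. Those given here were picked by hand after their values were seen, they are not all such genes in the table, and no count or direction is drawn from them. Klhl6, a gene of B cell maturation, had 3.98 and 4.51 on the hcatTg arrays, against 6.50 and 8.43 on the wild type arrays. Def6, a guanine nucleotide exchange factor gene of lymphocytes, had 5.34 and 5.98 on the hcatTg arrays, against 7.29 and 7.89 on the wild type arrays. Ctsc, which encodes the cathepsin that activates granule proteases, had 4.23 and 4.76 on the hcatTg arrays, against 5.94 and 5.76 on the wild type arrays. Unc93b1, a chaperone gene of Toll-like receptors, differed by -0.93, Siglecg, an inhibitory lectin gene of B cells, by -1.21, and Sp140, a leukocyte nuclear body gene, by -0.92, and the arrays of the genotypes overlapped for Siglecg and Sp140. Plac8, abundant in myeloid and lymphoid cells, was higher, with 9.27 and 10.09 on the hcatTg arrays, against 7.79 and 8.89 on the wild type arrays.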
